A study of Mus musculus with 18 samples.

Results

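Prostanoids are short-lived lipid signals made from arachidonic acid, and the genes described here encode the enzymes that release, convert and destroy them. The set was chosen from results of these libraries, because Ptgs2 was already known to be low in lungs of the BMSC-treated group and high in lungs of the COPD model group. The other genes were listed beside it by their function, and all were found by gene symbol. Of 10 listed genes, 8 had values that were analysed, among 13384 genes in the whole table: Pla2g4a, Ptgs2, Ptgs1, Ptges, Ptges2, Ptges3, Ptgis and Hpgd. Ptgds and Tbxas1 were not analysed here.

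The study asked how mesenchymal stem cells, called BMSCs in the labels, alter RNA in lungs of mice that model COPD, chronic obstructive pulmonary disease. Messenger RNA was profiled in 3 groups of 3 libraries each. The BMSC-treated group was exposed to cigarette smoke, was given cigarette smoke extract into the peritoneum and was then given 4000000 BMSCs through the tail vein in 100 µl of PBS, phosphate-buffered saline. The COPD model group had the same exposure and received PBS without cells. The control group received PBS alone. The labels used here give no strain, age or sex, and do not say that the 3 libraries of a group came from separate mice, so each p-value measures the spread between libraries only.

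In the pathway, cytosolic phospholipase A2, encoded by Pla2g4a, frees arachidonic acid from membranes. Ptgs1 and Ptgs2 encode the cyclooxygenases COX-1 and COX-2, which turn arachidonic acid into the common precursor of all prostanoids. COX-1 is made steadily in many cells, whereas COX-2 is induced by cytokines, growth factors and smoke, and its messenger is short-lived. Terminal synthases then make prostaglandin E (Ptges, Ptges2 and Ptges3) and prostacyclin (Ptgis), and Hpgd encodes the dehydrogenase that starts prostaglandin breakdown, for which the lung is a main site.

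The start regions of both cyclooxygenase genes and of the inducible prostaglandin E synthase are shown because the comparisons below turn on these 3 genes. Each line gives, 5′ to 3′ on the gene's own strand, the 250 bases before the start given by RefSeq for GRCm38.p6, the build also called mm10. Capitals mark matches to any of 6 motifs, searched on both strands over 300 bases, of which 250 lay before the start. They were the TATA box TATAAA, the E-box with the letters CACGTG, the core TGACG of the cAMP response element, the C/EBP palindrome TTGCGCAA, the GC box GGGCGG and the NF-kB pattern.
Ptgs2, chr1:150099781-150100030, plus strand: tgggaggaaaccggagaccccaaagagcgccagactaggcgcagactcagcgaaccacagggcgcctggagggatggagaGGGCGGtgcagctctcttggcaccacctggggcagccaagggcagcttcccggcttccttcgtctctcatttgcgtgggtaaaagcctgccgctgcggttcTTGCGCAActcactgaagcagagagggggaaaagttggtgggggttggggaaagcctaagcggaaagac
Ptgs1, chr2:36230176-36230425, plus strand: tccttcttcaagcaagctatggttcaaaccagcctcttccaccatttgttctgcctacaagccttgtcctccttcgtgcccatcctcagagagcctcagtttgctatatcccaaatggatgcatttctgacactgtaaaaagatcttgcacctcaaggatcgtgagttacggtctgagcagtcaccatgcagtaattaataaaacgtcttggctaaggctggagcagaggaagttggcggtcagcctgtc
Ptges, chr2:30903298-30903547, minus strand: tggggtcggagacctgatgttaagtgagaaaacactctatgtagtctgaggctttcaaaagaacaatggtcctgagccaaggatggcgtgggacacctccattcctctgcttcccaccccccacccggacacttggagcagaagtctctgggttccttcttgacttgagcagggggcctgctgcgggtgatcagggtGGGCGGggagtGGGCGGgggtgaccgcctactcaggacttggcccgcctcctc
The first 30 bases after the RefSeq start of Ptgs2, chr1:150100031-150100060, are shown because 2 of its motif matches lie there. Where its transcripts begin in these libraries was not examined.
Ptgs2, first bases after the start: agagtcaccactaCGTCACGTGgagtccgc

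The Ptgs2 window held the palindromic letters TTGCGCAA 69 to 62 bases before the start, and these occur in 0.183% of 32851 RefSeq windows of the same length. It also held GGGCGG 170 to 165 bases before the start, which 35.7% of windows hold. After the start, the core TGACG stood on the other strand at bases 14 to 18, where the printed strand reads CGTCA. The E-box stood at bases 17 to 22, so these 2 matches overlap. TGACG occurs in 20.8% and CACGTG in 7.15% of windows. The Ptges window held GGGCGG at 53 to 48 and at 42 to 37 bases before its start, and the Ptgs1 window held none of the motifs. TATAAA, present in 13.6% of windows, and the NF-kB pattern, present in 20.7%, were in none of these 3 windows. A match describes the letters only. The starts printed for Ptgs1 and Ptges lie inside the annotated spans of those genes, so other transcripts begin upstream of them.

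Levels are in FPKM, fragments per unit of transcript length and of sequencing depth, which can be set side by side between genes because length is divided out. The libraries differ in makeup. Transcripts of the 13 mitochondrial genes took 92.2%, 70.8% and 55.6% of all FPKM in BMSC-treated libraries 1, 2 and 3, against 23.9% to 30.04% in COPD model libraries and 89.3%, 65.1% and 46.9% in control libraries. The club cell secretory transcript Scgb1a1 took 1.32% to 6.27% in BMSC-treated libraries, 33.0% to 39.2% in COPD model libraries and 1.02% to 19.0% in control libraries. BMSC-treated library 1 and control library 1 stood apart, with 1193 and 1038 genes listed at 0, against 107 to 201 in the other libraries. The median change over all tested genes was not 0 either, and its cause was not tested. On the log2 scale that median was -0.75 for BMSC-treated against COPD model, 0.66 for COPD model against control, and -0.10 for BMSC-treated against control. Each gene is accordingly given also as rescaled FPKM, which has an equal sum in every library over all genes other than Scgb1a1 and the mitochondrial ones, and by its rank, the percentage of the 11765 tested genes that lie below it in the same library. The first 2 comparisons share the COPD model libraries, so their values are not independent of each other.

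Ptgs2 was highest in the COPD model libraries and lowest, on average, in the BMSC-treated ones. It had 0.931, 0.709 and 1.61 FPKM in BMSC-treated libraries, 12.2, 13.8 and 15.2 FPKM in COPD model libraries, and 0.910, 2.88 and 6.95 FPKM in control libraries. All COPD model libraries lay above all libraries of both other groups, and the BMSC-treated and control libraries overlapped. Over all tested genes, 31% were lower without overlap in BMSC-treated than in COPD model libraries, and 23.7% were higher in COPD model than in control libraries. The means were 1.08 ± 0.467 FPKM in the BMSC-treated group, 13.7 ± 1.50 FPKM in the COPD model group and 3.58 ± 3.08 FPKM in the control group (SD, n = 3 each). The COPD model mean was thus 12.7-fold the BMSC-treated mean and 3.84-fold the control mean. Because Ptgs2 was chosen for these differences, they are a description and carry no test. In bulk tissue, fewer cells of a type and less RNA per cell cannot be told apart.

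On the other scales too, the COPD model libraries lay above all others. Rescaled FPKM of Ptgs2 was 3.14, 0.813 and 1.27 in BMSC-treated libraries, 9.32, 10.7 and 10.9 in COPD model libraries and 2.16, 3.04 and 5.80 in control libraries. On that scale the COPD model mean was 5.93-fold the BMSC-treated mean and 2.81-fold the control mean, smaller than in deposited FPKM. Without overlap on this scale, 14.2% of all tested genes were lower in BMSC-treated than in COPD model libraries, and 7.09% were higher in COPD model than in control libraries. Its rank was 53.8%, 6.09% and 14.1% in BMSC-treated libraries, 79.1%, 78.7% and 78.5% in COPD model libraries, and 41.8%, 46.5% and 63.4% in control libraries. In the COPD model libraries Ptgs2 therefore held almost 1 position among all genes, well above the middle, while in 2 of the BMSC-treated libraries it was near the bottom of the tested genes. By rank, 11.3% of tested genes were lower without overlap in BMSC-treated than in COPD model libraries, and 6.15% higher in COPD model than in control libraries. BMSC-treated library 1, which has most genes listed at 0, gave the highest rank and the highest rescaled value of its group.

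**Figure D1:**
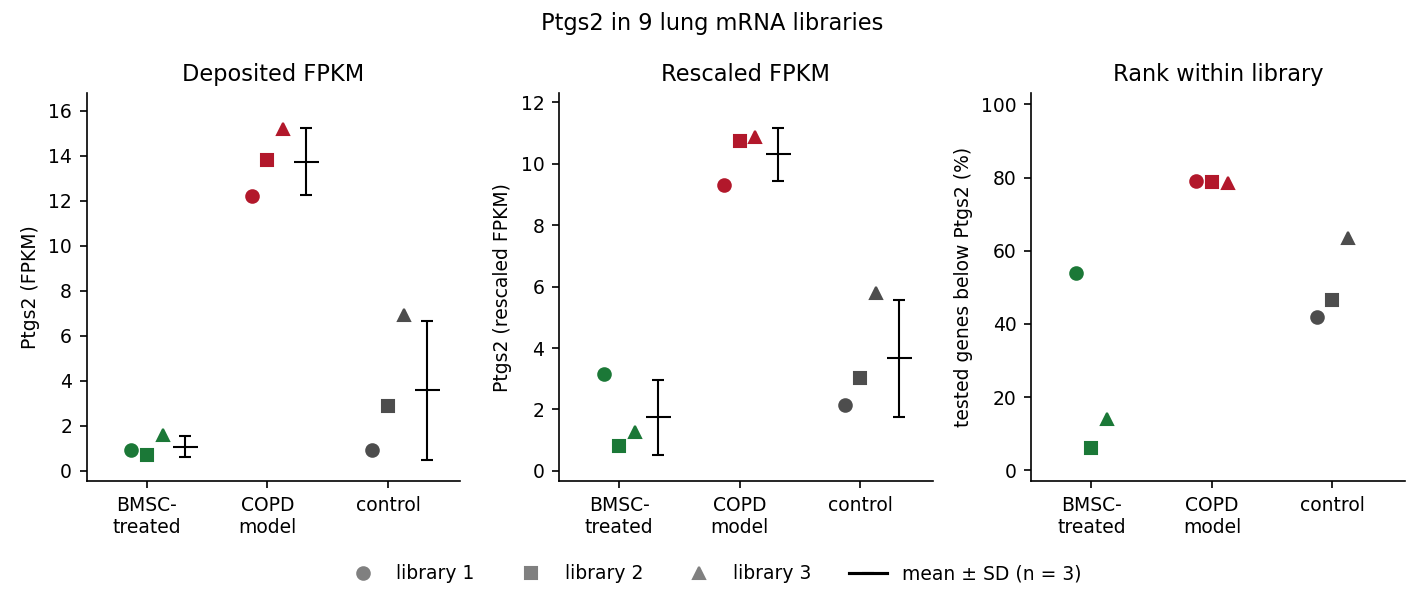
Ptgs2 in each of the 9 libraries as deposited FPKM (left), rescaled FPKM (middle) and the percentage of tested genes below it in the same library (right), all on linear axes, with symbols for library numbers and bars for mean ± SD (n = 3) in the first 2 panels. The COPD model libraries, at 12.2 to 15.2 FPKM and ranks of 78.5% to 79.1%, lie above every library of the other groups in each panel.

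On the log2(FPKM + 1) scale, which understates changes of low genes, Ptgs2 differed by -2.84 ± 0.64 (SE) between BMSC-treated and COPD model libraries, which is -2.09 relative to the median of all genes. Between COPD model and control libraries it differed by 1.92 ± 0.64, or 1.26 relative to that median. Between BMSC-treated and control libraries the difference was -0.93 ± 0.64, or -0.83 relative to the median. In the same-numbered libraries of these last 2 groups, the Ptgs2 level was close in number 1, and lower in the BMSC-treated library in numbers 2 and 3. Leaving out BMSC-treated library 1 and control library 1 together gave -2.80, 1.40 and -1.40 for the 3 comparisons in that order.

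Pla2g4a, which supplies arachidonic acid, lies on chromosome 1 beside Ptgs2: it spans bases 149829618 to 149961290, and Ptgs2 spans 150100031 to 150108234, with 138740 bases and no protein-coding gene between them. Pla2g4a had 0.865, 2.16 and 4.19 FPKM in BMSC-treated libraries, 2.56, 5.80 and 6.21 FPKM in COPD model libraries and 0.483, 2.69 and 5.11 FPKM in control libraries. Its group means had the order COPD model, control, BMSC-treated, and all groups overlapped. Its difference was -0.84 ± 0.61 for BMSC-treated against COPD model libraries (limma, adjusted p = 0.381) and 0.79 ± 0.61 for COPD model against control libraries (adjusted p = 0.514). Both lay within 0.14 of the median of all genes (-0.08 and 0.14 relative to it), and after rescaling they were -0.20 and 0.34. The antisense transcript Ptgs2os, whose annotated span ends 156 bases before the Ptgs2 start, was not analysed here.

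Ptgs1, the steady cyclooxygenase, is on chromosome 2 (36216742 to 36258593). It had 1.08, 4.30 and 6.08 FPKM in BMSC-treated libraries, 4.35, 5.57 and 12.6 FPKM in COPD model libraries and 1.05, 5.67 and 4.77 FPKM in control libraries. The groups overlapped, with library 1 lowest in each of them. The difference was -0.87 ± 0.66 for BMSC-treated against COPD model libraries (limma, adjusted p = 0.386) and 0.87 ± 0.66 for COPD model against control libraries (adjusted p = 0.514). Relative to the median of all genes these were -0.12 and 0.21, so its differences were near those of the median gene. After rescaling they were -0.18 and 0.31, and they were -0.35 without BMSC-treated library 1 and 0.33 without control library 1. In rank, Ptgs1 was at 58.3% to 59.5% in BMSC-treated libraries, 51.0% to 73.6% in COPD model libraries and 46.0% to 67.5% in control libraries.

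The ratio of both cyclooxygenases within a library does not depend on how that library was scaled. Ptgs2 over Ptgs1 was 0.867, 0.167 and 0.266 in BMSC-treated libraries, 2.80, 2.48 and 1.21 in COPD model libraries, and 0.872, 0.509 and 1.46 in control libraries. Ptgs2 exceeded Ptgs1 in every COPD model library, in control library 3 and in no BMSC-treated library. On the log2 scale the ratio differed by -2.59 between BMSC-treated and COPD model libraries, which did not overlap. It differed by 1.23 between COPD model and control libraries and by -1.36 between BMSC-treated and control libraries, and both of these pairs overlapped. These ratios contain Ptgs2 and carry no test.

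The prostaglandin E synthases had unlike values. Ptges encodes the inducible microsomal synthase that often works with COX-2, and it lies on chromosome 2 (30889471 to 30931020), where the models Gm52550 and Gm13400 overlap it. The sources used here do not say whether strand was used in counting, so its values may hold reads of those models. Ptges had 0.867, 2.75 and 6.01 FPKM in BMSC-treated libraries, 1.78, 1.59 and 2.70 FPKM in COPD model libraries, and 1.16, 2.57 and 1.57 FPKM in control libraries. These overlapped, and the difference between BMSC-treated and COPD model libraries was 0.29 ± 0.55 (limma, adjusted p = 0.670). It was 1.05 relative to the median of all genes in that comparison, and 0.87 after rescaling.

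In rescaled FPKM, Ptges was 2.92, 3.15 and 4.75 in BMSC-treated libraries, 1.36, 1.24 and 1.93 in COPD model libraries, and 2.74, 2.71 and 1.31 in control libraries. The BMSC-treated libraries then lay above all libraries of both other groups. In that direction 6.25% of tested genes had rescaled values without overlap between BMSC-treated and COPD model libraries, and 2.84% between BMSC-treated and control libraries. By rank, Ptges was at 51.5%, 43.8% and 59.2% in BMSC-treated libraries, at 21.6%, 13.4% and 22.7% in COPD model libraries, and at 49.2%, 42.7% and 14.1% in control libraries. The BMSC-treated ranks were all above the COPD model ranks, as were those of 9.63% of tested genes, and they overlapped with control. For COPD model against control libraries the difference was 0.14 ± 0.55 (adjusted p = 0.844), and its sign was negative after rescaling (-0.35), by quantile normalization (-0.44) and without control library 1 (-0.02).

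Ptges2, a membrane-associated synthase encoded on chromosome 2 (32395890 to 32402740), was the lowest of the genes in COPD model libraries. It had 0.154, 1.21 and 2.06 FPKM in BMSC-treated libraries, 1.11, 1.46 and 1.48 FPKM in COPD model libraries, and was listed at 0 and had 1.21 and 1.20 FPKM in control libraries. The groups overlapped, and the difference was -0.24 ± 0.41 for BMSC-treated against COPD model libraries (limma, adjusted p = 0.639), positive after rescaling (0.08). It was 0.47 ± 0.41 for COPD model against control libraries (adjusted p = 0.514), but 0.088 without control library 1. By rank Ptges2 stood at 11.6%, 17.0% and 21.5% in BMSC-treated libraries, above all COPD model libraries at 9.78%, 11.2% and 8.01%, a gap in rank that 9.63% of all tested genes had in the same direction. The rank in BMSC-treated library 1 belongs to 0.154 FPKM, in a library with 1193 genes listed at 0. In rescaled FPKM that library, at 0.520, was below the COPD model libraries at 0.850, 1.14 and 1.06.

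Ptges3, which encodes the cytosolic synthase and HSP90 co-chaperone p23, lies on chromosome 10 (128058982 to 128077254) and was far more abundant than the other synthases. It had 19.3, 76.4 and 112.2 FPKM in BMSC-treated libraries, 120.2, 138.2 and 129.3 FPKM in COPD model libraries, and 25.0, 103.8 and 158.4 FPKM in control libraries. Every BMSC-treated library was below every COPD model library, also in rescaled FPKM (64.9, 87.6 and 88.6, against 91.8, 107.4 and 92.4) and in rank. Of all tested genes, 31% were lower without overlap in deposited FPKM, 14.2% in rescaled FPKM and 11.3% by rank. The difference was -1.21 ± 0.80 (limma, adjusted p = 0.375), or -0.46 relative to the median of all genes, and it did not pass the test. It was -0.47 without BMSC-treated library 1 and -0.28 after rescaling. COPD model against control libraries gave 0.78 ± 0.80 (adjusted p = 0.539), with overlapping groups, but 0.0085 without control library 1 and 0.027 after rescaling.

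Ptgis encodes prostacyclin synthase, an enzyme of endothelium and smooth muscle, on chromosome 2 (167203194 to 167252150), where the model Gm52569 overlaps it. It had 1.34, 7.26 and 21.1 FPKM in BMSC-treated libraries, 13.7, 8.57 and 17.6 FPKM in COPD model libraries, and 3.39, 3.35 and 6.14 FPKM in control libraries. The COPD model libraries lay above the control libraries, as they did for 23.7% of all tested genes, and the BMSC-treated libraries spanned both groups. The difference between COPD model and control libraries was 1.42 ± 0.71 (limma, adjusted p = 0.514), or 0.76 relative to the median of all genes, and it did not pass the test. The difference was 0.75 after rescaling. In rescaled FPKM the same groups overlapped (6.66 to 12.6 in COPD model libraries, against 3.53 to 8.04 in control libraries). BMSC-treated against COPD model libraries differed by -0.87 ± 0.71 (adjusted p = 0.401), a value that was -0.13 after rescaling, -0.027 without BMSC-treated library 1 and 0.0058 by quantile normalization. The summed FPKM of 6 smooth muscle markers ranged over 44.1 to 397.7 in BMSC-treated libraries, 387.5 to 1082 in COPD model libraries and 70.0 to 514.5 in control libraries, with none of these markers listed at 0. The sum over 7 endothelial markers was 19.2 to 146.9 in BMSC-treated libraries, 52.6 to 187.4 in COPD model libraries and 45.3 to 103.8 in control libraries. Their part in the Ptgis values was not tested.

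Hpgd, the prostaglandin-degrading dehydrogenase on chromosome 8 (56294552 to 56321046), was abundant in every library. It had 85.1, 261.1 and 123.0 FPKM in BMSC-treated libraries, 101.6, 127.7 and 239.3 FPKM in COPD model libraries and 200.5, 287.1 and 125.2 FPKM in control libraries. The groups overlapped, and its rank was 97.5% to 99.5% across all 9 libraries. The difference was -0.06 ± 0.75 for BMSC-treated against COPD model libraries (limma, adjusted p = 0.950), and rescaling turned it to 0.88. COPD model against control libraries gave -0.40 ± 0.75 (adjusted p = 0.697), and -1.16 after rescaling. It was -1.06 relative to the median of all genes, the most negative of the 8 genes in that comparison.

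**Figure D2:**
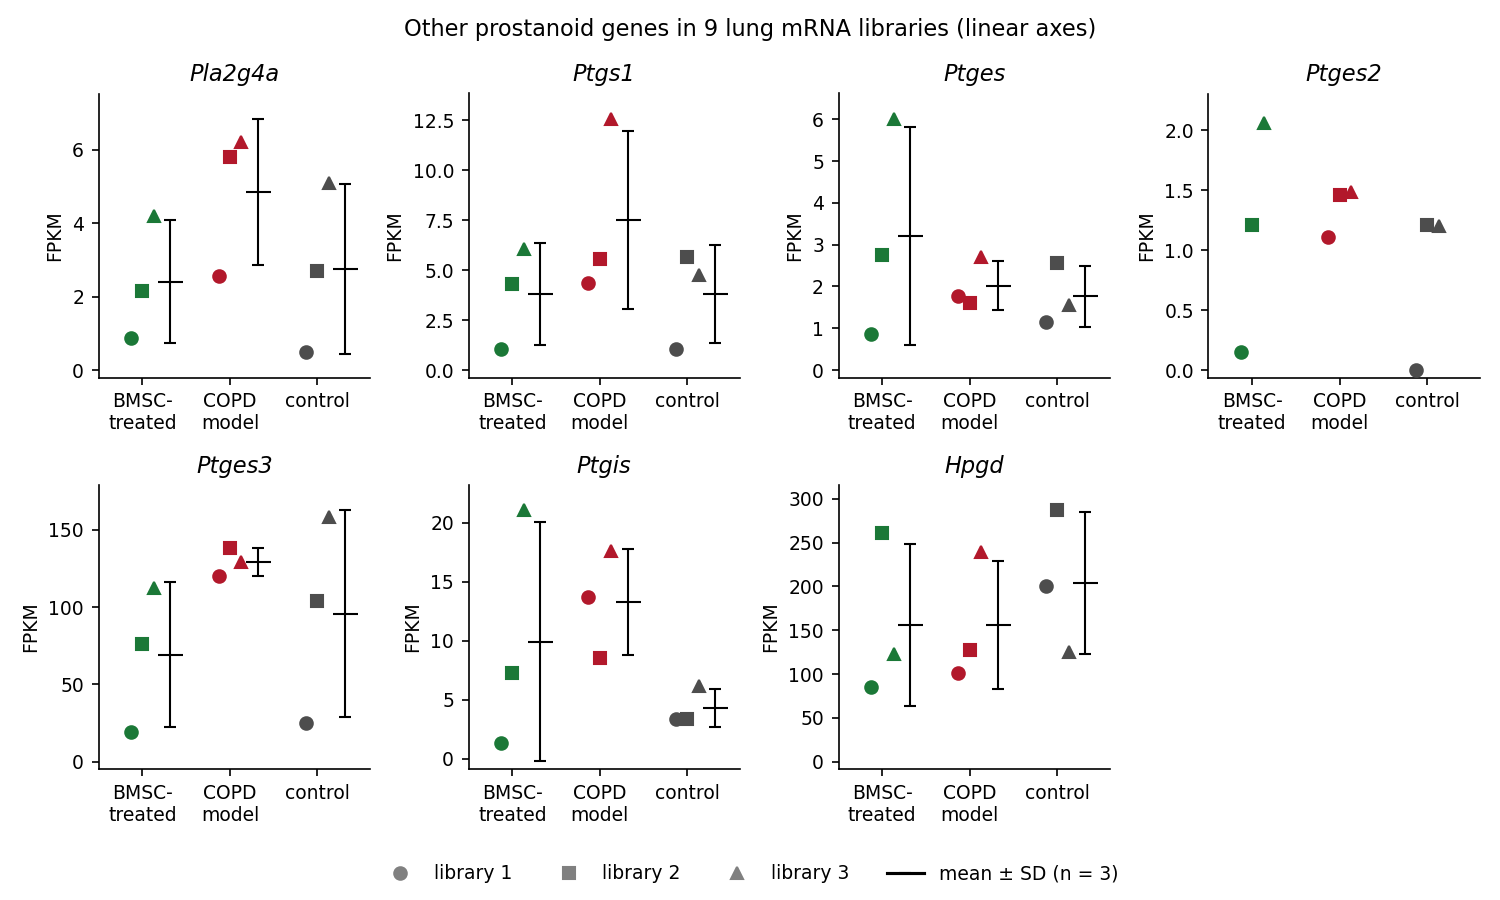
FPKM of the 7 genes other than Ptgs2 in each library on linear axes, with bars for mean ± SD (n = 3), left out for Ptges2 because 1 control library lists it at 0. Every Ptges3 value of the BMSC-treated group lies below the COPD model values, every Ptgis value of the COPD model group lies above the control values, and the other panels overlap.

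Hpgd, of prostaglandin breakdown, was set over Ptgs1, of steady synthesis, within each library. This compares 2 transcript levels and does not measure the activity of the enzymes. The ratio was 78.4, 60.6 and 20.2 in BMSC-treated libraries, 23.3, 22.9 and 19.0 in COPD model libraries, and 190.0, 50.6 and 26.2 in control libraries. All COPD model ratios were below all control ratios, while BMSC-treated ratios overlapped with both groups. On the log2 scale the COPD model and control groups differed by -1.55, with a two-sided exact permutation p of 0.1, the smallest that 3 against 3 libraries can give. Without control library 1 that difference was -0.75. BMSC-treated and COPD model libraries differed by 1.08 (exact p = 0.3), and BMSC-treated and control libraries by -0.46 (exact p = 0.7). Adjusted by Benjamini-Hochberg over these 3 tests, the permutation p-values were 0.3, 0.45 and 0.7.

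**Figure D3:**
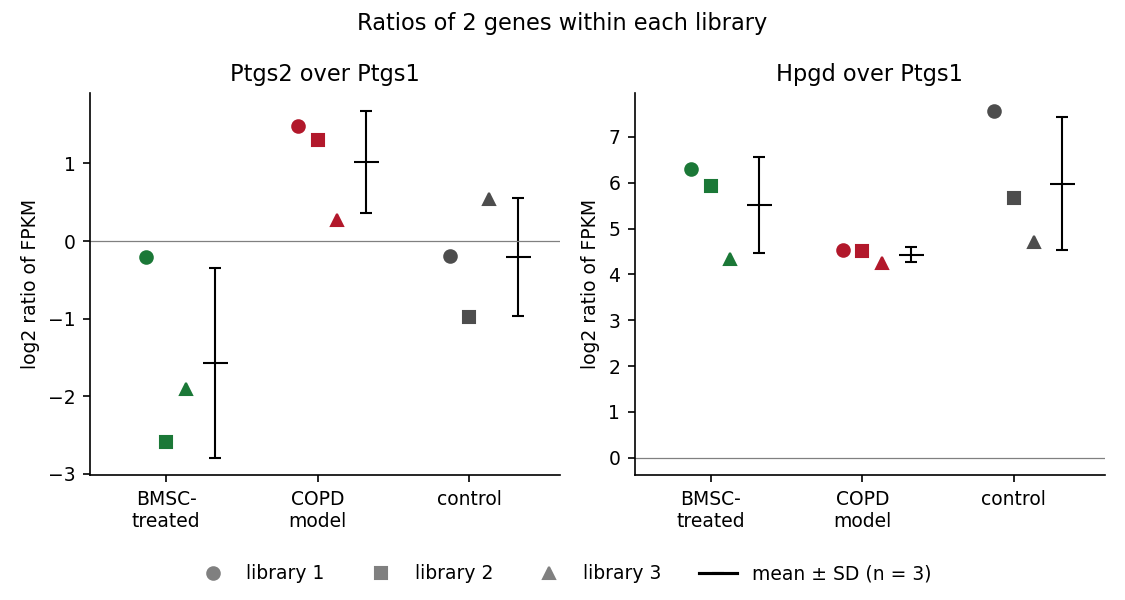
Ratios of FPKM within each library on the log2 scale, Ptgs2 over Ptgs1 (left) and Hpgd over Ptgs1 (right), with a point per library and bars for mean ± SD (n = 3). For Ptgs2 over Ptgs1 all COPD model points lie above all BMSC-treated points, and for Hpgd over Ptgs1 all COPD model points lie below all control points.

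The levels of the genes differed widely within a library. Hpgd and Ptges3 were the most abundant in all 9 libraries, with ranks of 97.0% or more, and Ptges2 was at or below a rank of 21.5% everywhere. Between these, the order changed with the group. In COPD model libraries 1 to 3 the FPKM of Ptgs2 was 12.2, 13.8 and 15.2, close to that of Ptgis at 13.7, 8.57 and 17.6, while in the BMSC-treated libraries 2 and 3 Ptgs2 was the lowest of all 8 genes. The coefficients of variation of Ptges3 and Ptgs2 in deposited FPKM were 67.6% and 43.2% in BMSC-treated libraries, 6.94% and 10.9% in COPD model libraries, and 70.0% and 86.0% in control libraries. In rescaled FPKM they were 16.7% and 70.8% in BMSC-treated libraries, 9.12% and 8.32% in COPD model libraries, and 37.1% and 51.8% in control libraries.

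**Figure D4:**
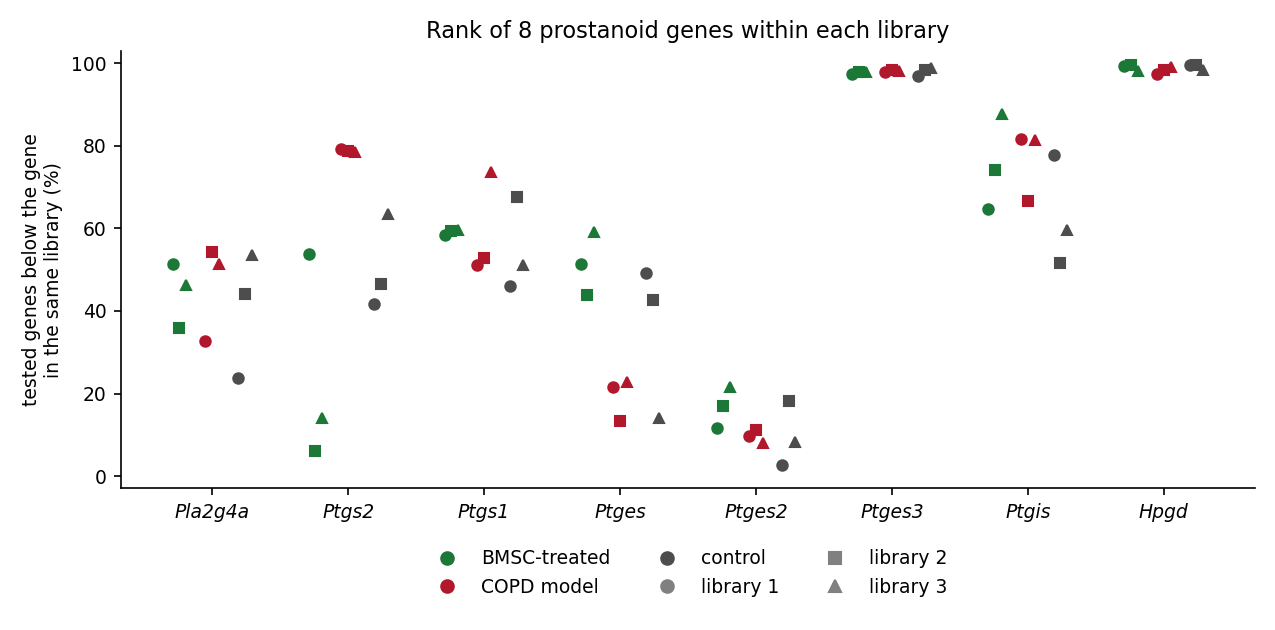
Percentage of the 11765 tested genes that lie below each of the 8 genes in the same library, by group (colour) and library number (symbol). Ptges3 and Hpgd stay at 97.0% or more everywhere, whereas Ptgs2 ranges over 6.09% to 79.1% and Ptges over 13.4% to 59.2%.

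Of the 7 genes other than Ptgs2, none passed the test in any of the 3 comparisons with limma at an adjusted p under 0.05. In simulated data for COPD model against control, 8% of genes given a log2 change of 2 were called, so sizeable changes could be missed. For BMSC-treated against COPD model libraries 0.127% of all tested genes passed, and the adjusted p-values of the 7 genes were 0.375 to 0.950, with none at an unadjusted p under 0.05, against 11.1% of all tested genes. Here 6 of the 7 had a negative difference, their median was -0.84 against -0.75 over all genes, and 3 lay above and 4 below that median. Only Ptges3 had non-overlapping groups in FPKM, where 31.3% of all tested genes did in either direction and 31% in the lower one.

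For COPD model against control libraries 0.0765% of all tested genes passed, and the adjusted p-values of the 7 genes were 0.514 to 0.844, with 1 gene, Ptgis, at an unadjusted p under 0.05, against 6.59% of all tested genes. A positive difference was seen for 6 of the 7, and their median was 0.78 against 0.66 over all genes. Only Ptgis had groups that did not overlap, against 24% of all tested genes in either direction and 23.7% in the higher one. For BMSC-treated against control libraries 0% of tested genes passed with limma, 48 genes had an unadjusted p under 0.05, and none of the 7 was among them. Their median difference was -0.00 against -0.10 over all genes, and the groups overlapped in FPKM for each of the 7, whereas for 0.561% of all tested genes they did not overlap.

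**Figure D5:**
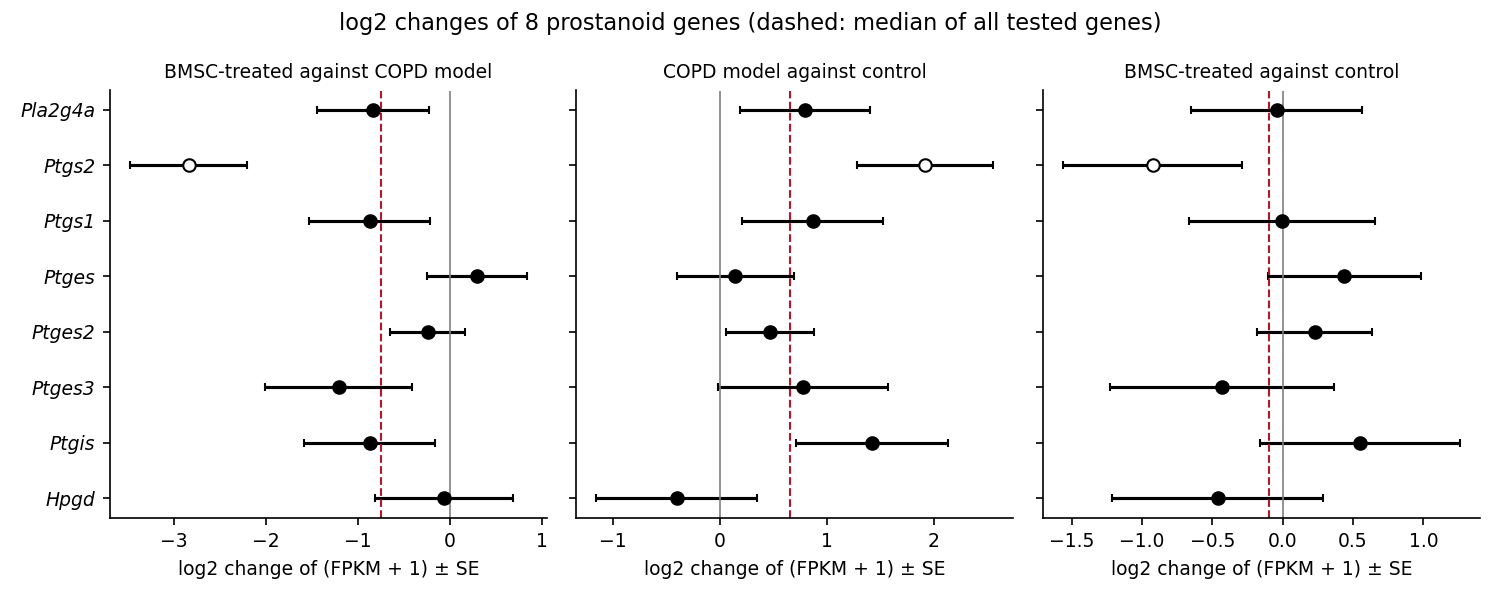
log2 change of (FPKM + 1) with its SE for the 8 genes in the 3 comparisons, the open point marking Ptgs2, which was chosen for its change; the dashed line is the median of all tested genes. Apart from Ptgs2, Ptges (1.05 above the line, left) and Hpgd (1.06 below it, middle) lie farthest from the median.

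Genes of the surrounding pathway were read from 7 lists with 70 genes, of which 53 were in the table and 42 were tested. None of the 42 passed with limma in any comparison. For BMSC-treated against COPD model libraries, 5 had an unadjusted p under 0.05, their adjusted p-values were 0.375 to 0.969, and 13 had non-overlapping groups, all lower. Over all tested genes 11.1% (1307) had such a p and 31% were lower without overlap, shares near those of the 42. For COPD model against control libraries, 3 had an unadjusted p under 0.05, adjusted p-values were 0.514 to 0.980, and 9 had non-overlapping groups, all higher. Over all tested genes 6.59% (775) had such a p and 23.7% were higher without overlap, again near the shares of the 42. For BMSC-treated against control libraries there was none at an unadjusted p under 0.05 and none without overlap. Relative to all genes the median of the 42 was 0.13, -0.08 and 0.03 in these comparisons. Ptger4 is among the genes counted at an unadjusted p under 0.05 and without overlap in both comparisons with the COPD model group. It reached 1 FPKM only in that group and was tested only through it, so its part in these counts carries no support.

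In prostaglandin inactivation, Ptgr1 encodes a reductase that acts after Hpgd, and it had 2.64, 11.6 and 15.9 FPKM in BMSC-treated libraries, 50.1, 57.2 and 49.0 FPKM in COPD model libraries and 3.94, 17.0 and 48.4 FPKM in control libraries. In deposited FPKM the COPD model libraries were above all others, by a narrow margin over control library 3. Of all tested genes, 31% were lower without overlap in BMSC-treated than in COPD model libraries, and 23.7% higher in COPD model than in control libraries. After rescaling, COPD model libraries at 35.0 to 44.5 overlapped with control library 3 at 40.4 for Ptgr1. The differences were -2.53 ± 0.78 for BMSC-treated against COPD model libraries (limma, adjusted p = 0.375) and 1.69 ± 0.78 for COPD model against control libraries (adjusted p = 0.514). Cbr1, a carbonyl reductase that acts on prostaglandins, differed by -1.70 and 1.37 in these comparisons, without passing. Relative to the median of all genes, Ptgr1 was at -1.77 and 1.04, and Cbr1 at -0.95 and 0.71. Ptgr2, a related reductase, differed by -0.53 between BMSC-treated and control libraries.

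Among inducers and transcription factors of Ptgs2, Cebpd and Cebpb encode C/EBP proteins, which bind palindromes like the one printed above. Cebpd had 4.69, 4.38 and 15.9 FPKM in BMSC-treated libraries, 24.8, 29.3 and 32.4 FPKM in COPD model libraries and 10.1, 16.0 and 17.3 FPKM in control libraries, so that in deposited FPKM the COPD model libraries were above all others. Of all tested genes, 31% were likewise lower without overlap in BMSC-treated than in COPD model libraries, and 23.7% higher in COPD model than in control libraries. After rescaling, the COPD model libraries overlapped with control for Cebpd, where control library 1 had 24.1, against 18.9 to 23.2 in COPD model libraries. Its difference was -1.89 ± 0.74 for BMSC-treated against COPD model libraries (limma, adjusted p = 0.375). For COPD model against control libraries it was 0.97 ± 0.74 (limma, adjusted p = 0.514). Both were smaller relative to the median of all genes, at -1.13 and 0.31. Cebpb had 15.6, 41.7 and 71.3 FPKM in BMSC-treated libraries, 91.9, 123.5 and 80.9 FPKM in COPD model libraries and 16.2, 51.3 and 76.8 FPKM in control libraries. After rescaling, COPD model libraries at 57.8 to 96.0 overlapped with control library 3 at 64.1. The part of Cebpd and Cebpb in the Ptgs2 values was not tested. Il1b, which encodes the Ptgs2-inducing cytokine interleukin-1 beta, had 3.56, 2.07 and 5.01 FPKM in BMSC-treated libraries, 2.83, 7.40 and 3.29 FPKM in COPD model libraries and 11.9, 8.61 and 3.80 FPKM in control libraries. Its groups overlapped, and its highest values were in control libraries 1 and 2.

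Factors that bind AU-rich elements control the lifetime of short-lived messengers such as that of Ptgs2. Elavl1, which encodes the stabilising protein HuR, had 1.78, 2.94 and 1.34 FPKM in BMSC-treated libraries, 5.22, 5.59 and 6.30 FPKM in COPD model libraries and 2.67, 3.21 and 0.860 FPKM in control libraries. In deposited FPKM, 31% of all tested genes were lower without overlap in BMSC-treated than in COPD model libraries, and 23.7% higher in COPD model than in control libraries. For Elavl1, too, the COPD model libraries were above all others in deposited FPKM. After rescaling they had 3.98 to 4.50, below BMSC-treated library 1 at 5.99 and control library 1 at 6.34. Its difference was -1.18 ± 0.60 for BMSC-treated against COPD model libraries (limma, adjusted p = 0.375). For COPD model against control libraries it was 1.13 ± 0.60 (limma, adjusted p = 0.514). Both were smaller relative to the median of all genes, at -0.43 and 0.47. Zfp36, which encodes the decay factor tristetraprolin, differed by -1.22 between BMSC-treated and COPD model libraries. The decay factor Khsrp differed by 0.84 between COPD model and control libraries. Relative to the same medians these values were -0.47 and 0.18. Celf2 and Tia1 differed by -0.62 and -0.28 between BMSC-treated and control libraries.

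Of 9 receptor genes, 4 were tested, all at low levels. Ptger4, an E prostanoid receptor gene, had 0.143, 0.317 and 0.783 FPKM in BMSC-treated libraries, 1.14, 1.16 and 1.28 FPKM in COPD model libraries and 0.129, 0.161 and 0.771 FPKM in control libraries. The COPD model libraries were above all others, also after rescaling. On that scale 14.2% of all tested genes were lower without overlap in BMSC-treated than in COPD model libraries. In COPD model against control libraries, 7.09% were higher. Ptger4 reached 1 FPKM only in the COPD model libraries. It was thus tested only because that group was high, and the test carries no support. It differed by -0.66 ± 0.33 for BMSC-treated against COPD model libraries (limma, adjusted p = 0.375). For COPD model against control libraries it differed by 0.73 ± 0.33 (limma, adjusted p = 0.514). Relative to the median of all genes these were 0.10 and 0.07. Ptgfr, the prostaglandin F receptor gene, differed by -0.37 and 0.36 in these comparisons. Its values relative to that median were 0.39 and -0.30, of opposite sign. The prostacyclin receptor gene Ptgir and the thromboxane receptor gene Tbxa2r differed by 0.33 and 0.30 between BMSC-treated and control libraries.

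Arachidonate release and recycling had 10 tested genes. The long-chain acyl-CoA synthetase gene Acsl4 differed by -1.54 and the phospholipase gene Pla2g6 by -0.88 between BMSC-treated and COPD model libraries. Pla2g15 differed by 1.14 and Pla2g12a by 1.09 between COPD model and control libraries. Relative to the median of all genes, Acsl4 was at -0.79, Pla2g6 at -0.13, Pla2g15 at 0.48 and Pla2g12a at 0.44. Pla2g2d differed by -0.71 and the lipase gene Mgll by 0.41 between BMSC-treated and control libraries. Of 4 other prostanoid synthase genes 2 were tested, with FPKM of 0.905 to 7.27 for Fam213b and 1.69 to 5.98 for Akr1b3 in BMSC-treated libraries, 4.11 to 7.47 and 3.97 to 5.08 in COPD model libraries, and 0.567 to 5.60 and 2.09 to 4.08 in control libraries. In the leukotriene branch, with 5 tested genes, Dpep1 differed by -1.34 and Lta4h by -0.46 between BMSC-treated and COPD model libraries. Between COPD model and control libraries they differed by 1.46 and 0.54. Relative to the median of all genes, Dpep1 was at -0.59 and 0.81, and Lta4h at 0.29 and -0.11. Alox5ap and Alox12 differed by 0.15 and -0.16 between BMSC-treated and control libraries. None of these passed the test.

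Among the genes whose levels ran most like that of Ptgs2 over the 9 libraries were Pus10, Map3k7cl, Lman2l and Ccdc160, with Pearson r of 0.973, 0.969, 0.968 and 0.968 on the log2(FPKM + 1) scale. After rescaling the 5 most alike were Psma3, Prdx6, Osbpl10, Ebna1bp2 and Fitm2, with r of 0.960, 0.958, 0.955, 0.950 and 0.948, and none of the genes named was in both lists. Among the prostanoid genes r was 0.74 for Pla2g4a, 0.71 for Ptges3, 0.65 for Ptgs1, 0.52 for Ptgis, 0.49 for Ptges2, -0.04 for Ptges and -0.13 for Hpgd. After rescaling r was 0.44 for Pla2g4a, 0.39 for Ptges3, 0.21 for Ptgs1, -0.02 for Ptgis, -0.01 for Ptges2, -0.86 for Ptges and -0.54 for Hpgd. The 9 points share the library makeup described above and fall into 3 groups, so these values describe likeness only.

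The lung origin of the libraries was read from alveolar type 2 markers, whose 6 genes summed to 806.4 to 2265 FPKM in BMSC-treated libraries, 2809 to 4753 FPKM in COPD model libraries and 942.5 to 3101 FPKM in control libraries, with none at 0. Of 13 marker lists for cells a lung piece can hold, 2 had sums in all COPD model libraries above all other libraries, as Ptgs2 did. The 4 club cell markers summed to 9849 to 38904 FPKM in BMSC-treated libraries and 164240 to 259556 FPKM in COPD model libraries. In control libraries they summed to 7004 to 106701 FPKM. Most of the COPD model sum was Scgb1a1, at 159371 to 248461 FPKM. Only 1 of the 4 markers was higher without overlap in COPD model than in control libraries. In BMSC-treated libraries, 2 of the 4 were lower without overlap than in COPD model libraries. Over all tested genes these shares were 23.7% and 31%. With limma, 1 of the 4 passed in each of these comparisons, against 0.0765% and 0.127% of all tested genes. The number of genes called depended on the processing, as given at the end. After rescaling, the club cell sums of COPD model libraries, at 117304 to 198133, stayed above all others. BMSC-treated libraries then had 30744 to 44169 and control libraries 16623.5 to 89058.5. The 5 alveolar type 1 markers summed to 133.9 to 275.1 FPKM in BMSC-treated libraries, 348.0 to 632.1 FPKM in COPD model libraries and 158.0 to 279.1 FPKM in control libraries, and overlapped after rescaling. None of these markers was listed at 0, and their part in the Ptgs2 values was not tested. Neutrophils and macrophages are known sources of COX-2. The 6 neutrophil markers summed to 157.9 to 278.2 FPKM in BMSC-treated libraries, 116.3 to 262.0 FPKM in COPD model libraries and 137.3 to 864.6 FPKM in control libraries, and none was listed at 0. The 7 macrophage markers in the table summed to 15.3 to 109.5 FPKM in BMSC-treated libraries, 32.6 to 65.0 FPKM in COPD model libraries and 15.2 to 40.2 FPKM in control libraries, where 2 of them were listed at 0. The part of these cells in the Ptgs2 values was not tested. Platelets are rich in COX-1, and their 6 markers summed to 122.2 to 342.8 FPKM in BMSC-treated libraries, 72.1 to 131.0 FPKM in COPD model libraries and 58.0 to 276.2 FPKM in control libraries. Sums for mast cell, ciliated cell, fibroblast, mesothelial and cardiac muscle markers overlapped between the COPD model group and at least 1 other group.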

How the data were processed

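Lung mRNA of 3 groups (BMSC-treated, COPD model, control; 3 libraries each) was taken from the gene table; the 18 libraries of the series also include tsRNA, not used here. Groups were read off the treatment labels and replicate numbers off the titles. Per the labels' protocols, poly(A) RNA was made into stranded libraries from 1.5 µg of total RNA. The deposited values are FPKM per the file headers, so the authors had divided reads by transcript length and by each library's reads. The submitters' processing notes name FastQC, cutadapt, StringTie, Bowtie and mm10; neither their versions and roles nor any use of strand in counting is given in the sources used here. Read depth is unknown: low FPKM values did not decide whether they are steps of whole reads. Every value column was assigned to a sample, and no libraries were identical.

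Genes with at least 1 FPKM in at least 3 of 9 libraries were tested (11765 of 13384, all 8 prostanoid genes among them). On log2(FPKM + 1), limma (version 3.58.1, R version 4.3.3) was run two-sided with one model for all 9 libraries and a trended prior variance; p-values were adjusted by Benjamini-Hochberg over all tested genes; an adjusted p under 0.05 made a call. Ratios within a library used log2 after adding 0.01 FPKM to each gene, with exact permutation tests. The fit was tested on simulated data for COPD model against control: of 200 genes among 11765 that were given a log2 change of 2, 8% were called, and of 200 given a change of 4, 92.5%.

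The members and lists were chosen with earlier results of these data known. All members are named, and from each pathway list the 2 genes with the smallest p per comparison; lists with fewer than 3 tested genes are given by levels. The 5 genes with the highest Pearson r with Ptgs2 on each scale are also named, except 1 that is not reported here. Pairing, which the labels do not state, was checked by correlating deviations from group means. Same-numbered BMSC-treated and control libraries gave r of 0.63, 0.19 and 0.50, all over 0.1. Numbers 2 and 3, however, also gave r of 0.19 and 0.31 with a library of another number, so the check did not settle pairing. A replicate block was fitted as an alternative only. The other comparisons gave -0.17 to 0.18, the latter for number 2 of COPD model against control, and were not taken as paired. Gene positions and promoter sequences were matched by symbol to RefSeq on GRCm38.p6, for 8 and 7 of the 8 genes. Ranks and the combination of rescaling with 2 libraries left out were added after seeing the data. Other alternatives are listed with their effect at the end. Python 3.11.15, pandas 2.3.3, numpy 2.4.6 and matplotlib 3.10.9 made tables and plots.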

Additional observations from a re-analysis of the deposited data

How the results depend on the processing

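None of the 7 tested prostanoid genes passed under any alternative. Ptgs2 kept its direction in all: between BMSC-treated and COPD model libraries it was -3.62 to -1.95 (-3.62 with a pseudocount of 0.1, -2.13 rescaled, -1.95 by quantile normalization), 1.11 to 2.43 for COPD model against control (1.17 by quantile normalization, 1.11 rescaled without BMSC-treated 1 and control 1), and -1.44 to -0.41 for BMSC-treated against control. With 3 libraries a group and unknown depth, changes could be missed, and not only small ones of genes near 1 FPKM. In simulated data for COPD model against control, 8% of genes given a log2 change of 2 were called. Ptgis over Tbxas1 was planned and not run, since Tbxas1 was not analysed here.

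The count of all genes called for BMSC-treated against COPD model (15) was 0 with a pseudocount of 0.1, rescaled, by quantile normalization or without the trend, 6 with no filter, 4 rescaled without BMSC-treated 1 and control 1, and 0 to 35 with 1 library left out (0 without BMSC-treated 1). For COPD model against control (9) it was 0 in the same first 4 settings, 1 with no filter, 2 from the 2 groups alone, 3 without BMSC-treated 1 and control 1, 0 when also rescaled, and 1 to 47 with 1 library left out (47 without control 3). For BMSC-treated against control (0) it was 6 without BMSC-treated 1 and control 1, 3 when also rescaled, and 0 to 2 with 1 library left out. The cause was not tested.

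With the replicate number as a block, counts for BMSC-treated against COPD model were 34 (all 9 libraries) and 95 (2 groups). Those for COPD model against control were 17 and 0, and those for BMSC-treated against control 0 and 0. The block changed no call of the prostanoid genes. By the labels, same-numbered libraries share only a number. Paired sign-flip tests of Hpgd over Ptgs1 gave exact p of 0.25, 0.25 and 0.5, where 0.25 is the smallest for 3 pairs.

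Some uncalled log2 differences changed sign. For BMSC-treated against COPD model, rescaled, by quantile normalization, without BMSC-treated 1 and control 1, and with both, Ptges2 gave 0.076, 0.15, 0.15 and 0.32 and Hpgd 0.88, 0.69, 0.29 and 0.63; Ptgis gave 0.0058 by quantile normalization and 0.28 with both. For COPD model against control, in the same order, Ptges gave -0.35, -0.44, -0.019 and -0.23, and with both, Ptges2 -0.087, Ptges3 -0.31 and Pla2g4a -0.013. For BMSC-treated against control, Pla2g4a gave 0.048 with a pseudocount of 0.1, 0.15 rescaled and 0.13 by quantile normalization, and Ptgs1 0.13 rescaled and 0.12 by quantile normalization. With 1 library left out, the ranges were -0.51 to 0.29 for Hpgd, -0.17 to 0.78 for Ptges and -0.56 to 0.15 for Ptges2 (BMSC-treated against COPD model); -0.019 to 0.34 for Ptges (COPD model against control); -0.60 to 0.42 for Pla2g4a, -0.031 to 0.92 for Ptges, -0.15 to 0.62 for Ptges2, -1.20 to 0.30 for Ptges3, -0.23 to 1.39 for Ptgis and -0.54 to 0.52 for Ptgs1 (BMSC-treated against control). Hpgd over Ptgs1 ranged over 0.69 to 1.67 for BMSC-treated against COPD model, -2.18 to -0.75 for COPD model against control, and -1.10 to 0.33 for BMSC-treated against control (0.33 without control 1, 0.13 without BMSC-treated 3).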
